A study of Mus musculus with 12 samples.

Results

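Gene expression after kainic acid (KA) was compared with vehicle control in the mouse hippocampus at 8 h, across all genes that carried a symbol on the array. The comparison rests on the 3 arrays titled KA 8 and the 3 titled CTR 8, which are 6 of the 12 arrays of the study. The other 6 arrays hold the same 2 treatments at 14 d, and they are used here only for the spread and for what became of the genes that changed at 8 h. Each array measured RNA from the hippocampus on the injected side. In the KA group, 0.3 µg of KA, which activates glutamate receptors of the kainate type, was delivered into the amygdala in 0.2 µl of vehicle (phosphate-buffered saline). This sets off status epilepticus, and lorazepam, a benzodiazepine that dampens seizures, was given into the abdomen at 6 mg/kg, 40 min later. The control group received 0.2 µl of vehicle at the same site, and the labels do not say whether it was given lorazepam, so an effect of lorazepam cannot be told apart from that of KA. Strain, sex and age are not given in the labels. Whether every sample stems from a separate animal is not in the labels, and p-values therefore cover only the variation among these samples. All samples started from 5 ng of total RNA amplified over 22 cycles, of which 8 µg of cDNA was labelled. Groups were taken from the titles, because a second entry in the labels gives times of 8, 9 and 10 h for the 3 controls and of 11, 12 and 13 h for the 3 KA samples. If that entry were the true time, time and treatment could not be told apart.

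Status epilepticus is a seizure that does not end by itself. Strong firing and calcium entry switch on immediate early genes in neurons within minutes, and the transcription factors among them then act on a second wave of genes for secreted, synaptic and signalling proteins. The kainate model injures vulnerable neurons of the hippocampus within hours, and glial cells begin to respond over the same period. Whole tissue was measured, so fewer cells of a type and less RNA per cell cannot be told apart in any value below.

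The arrays were alike in distribution, with medians of 4.90 to 4.94 (log2 intensity). Arrays of the same group correlated at 0.992 to 0.997 over probe sets, and a KA array with a control array at 0.983 to 0.988. Of 12 neuronal markers measured, 1 was called lower (Rbfox3, -0.37 ± 0.11, adjusted p = 0.0234, and up to 0.0988 with 1 array left out) and none higher, and the summed level of the 12 was 14.17 to 14.29 on the control arrays and 14.12 to 14.27 on the KA arrays (log2). Most listed markers of dentate granule cells, CA1 and CA3 pyramidal cells, astrocytes, microglia and oligodendrocytes passed the filter on low values. So did 9 of 9 markers of thalamus and 7 of 9 of cortex and amygdala, so passing does not identify the tissue. Of the thalamus markers Rgs16 was called higher and Ntng1 lower, a fall lost without control replicate 3 or KA replicate 1 or 3. Their summed level was 10.20 to 10.27 on the control arrays and 10.05 to 10.67 on the KA arrays (log2). Of 11 choroid plexus markers none was called, but their summed level stood apart on KA replicate 3, at 10.01 against 12.05 and 12.44 on the other KA arrays and 12.07 to 12.36 on the controls. None was called of the 5 leukocyte markers (of 12 listed), 3 erythrocyte markers (of 7) and 5 ependymal markers (of 7) that passed the filter on low values, and their summed levels overlapped between groups. Of 6 meningeal markers 1 was called, Slc6a20a, which lay below background on all KA arrays and lost its call without KA replicate 1 (-0.37, adjusted p = 0.0813) or 3 (-0.32, adjusted p = 0.101), while without control replicate 2 or 3 it did not pass the filter. Their summed level was also lowest on KA replicate 3, at 8.96 against 9.59 and 9.91 on the other KA arrays and 9.56 to 9.83 on the controls.

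Of 13853 genes tested, 2420 changed after KA, which is 17.5%. Of these, 1097 rose (7.92%) and 1323 fell (9.55%), so falls were more numerous, but rises were larger. The median rise was 0.52 and the median fall -0.40 on the log2 scale, against a median of -0.02 over all genes tested. At least a 2-fold rise was seen for 190 genes (1.37%) and at least a 2-fold fall for 13 (0.0938%), while rises of at least 4-fold numbered 44 and falls of that size 0 in limma's fit. The lists of genes usually followed in this model (activity, stress and glial genes) hold 42 of the 190, other lists hold 45, and 103 are in no list. Among the 12086 genes in no list, 1917 changed (15.9%). In 2391 of the 2420, the 3 KA arrays and the 3 control arrays did not overlap, where 33.8% of all genes tested showed no overlap. The balance of rises and falls turned without control replicate 3 (903 rose and 754 fell) and without KA replicate 1 (954 and 827). It also turned with cyclic loess (1399 and 1215) and at an adjusted p under 0.01 (723 and 629). Of 42 counts of 1 or 2 called members in the functional lists below, 29 moved by over 1.5 times with at least 1 array left out. Genes at least 2-fold lower numbered 20 without control replicate 1 and 23 without KA replicate 3.

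**Figure D1:**
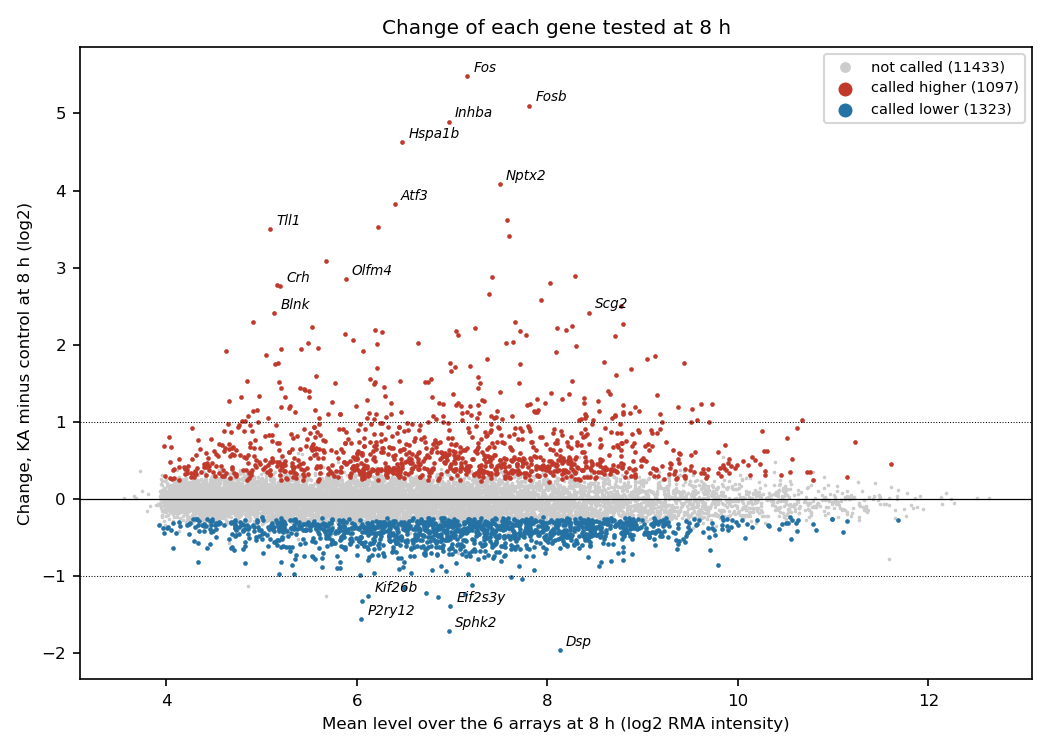
Each point is 1 of the 13853 genes tested, placed by its mean level over the 6 arrays (log2 intensity, horizontal) and by its change, KA minus control (log2, vertical), with dotted lines at a 2-fold change. Red points mark the 1097 genes called higher and blue points the 1323 called lower, and the rises reach 5.49 (Fos) while the deepest fall is -1.97 (Dsp).

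Activity-regulated genes gave the largest changes. Of the 36 usual activity genes measured, 33 rose and none fell, with a median of 1.87. In what follows, values on arrays are log2 intensities in the order of the replicate numbers, and changes are log2 differences (KA minus control). The value after ± is limma's standard error of the change, for means of 3 arrays per group. Its variance comes from the fit to the arrays of both times, so it does not reflect only the spread of the arrays listed. P-values are limma's, adjusted over all genes tested. Fos, which forms the AP-1 factor with Jun proteins, read 4.83, 4.34 and 4.07 on the control arrays and 9.65, 9.74 and 10.32 on the KA arrays. The KA arrays lie far above the controls, of which only replicate 1 was above its own background, so the rise is given as at least 43.4-fold higher (5.49 ± 0.50, adjusted p = 1.89e-06). Fosb, a related subunit, read 5.10, 5.30 and 5.37 on the control arrays and 10.35, 10.22 and 10.51 on the KA arrays (5.10 ± 0.47, adjusted p = 1.95e-06). Arc, a synaptic protein that promotes the uptake of AMPA receptors, read 5.76, 5.50 and 6.04 on the control arrays and 9.26, 9.31 and 9.59 on the KA arrays (3.61 ± 0.24, adjusted p = 5.85e-08). Bdnf, a neurotrophin, read 6.11, 5.96 and 5.87 on the control arrays and 8.78, 8.74 and 9.06 on the KA arrays (2.88 ± 0.21, adjusted p = 2.28e-07), and its other probe set moved by 3.60. Nptx2, a secreted pentraxin that gathers AMPA receptors, read 5.28, 5.43 and 5.67 on the control arrays and 9.42, 9.64 and 9.56 on the KA arrays (4.08 ± 0.33, adjusted p = 6.60e-07). Inhba, which encodes a subunit of activin, read 4.55, 4.48 and 4.52 on the control arrays and 9.41, 9.30 and 9.54 on the KA arrays (4.89 ± 0.25, adjusted p = 4.03e-09). Its other probe set moved by -0.18, so the rise rests on the probe set with the higher mean.

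Stress genes moved the same way. Of 19 measured usual stress genes, 13 rose and none fell, with a median of 0.83. Hspa1b, an inducible heat shock chaperone, read 4.19, 4.10 and 4.19 on the control arrays and 8.35, 8.65 and 9.37 on the KA arrays, which is at least 21.7-fold higher since a single control array was above background (4.63 ± 0.20, adjusted p = 1.23e-09). Its other 2 probe sets rose less, by 0.29 and 0.35. Atf3, a factor induced by cell stress, read 4.57, 4.36 and 4.53 on the control arrays and 8.35, 7.98 and 8.62 on the KA arrays. Control replicate 2 lay below background, so it was at least 14.1-fold higher (3.83 ± 0.17, adjusted p = 1.23e-09). Hspb1, a small heat shock protein, rose by 2.24 ± 0.11, adjusted p = 2.51e-09, and Dnajb1, a co-chaperone of the heat shock system, by 1.19 ± 0.15, adjusted p = 6.40e-05. Gadd45g, a stress sensor of the growth arrest family that stands on the activity list, read 6.93, 6.89 and 6.73 on the control arrays and 9.88, 9.38 and 9.93 on the KA arrays (2.88 ± 0.12, adjusted p = 8.63e-10).

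Among genes on none of the lists, the 12 largest rises included secreted proteins, hormones and receptors. Tll1, a protease that processes collagen and growth factor regulators, read 3.08, 3.49 and 3.45 on the control arrays and 6.78, 6.89 and 6.86 on the KA arrays. All 3 control arrays lay below background, so the rise is at least 5.67-fold higher (3.50 ± 0.19, adjusted p = 1.11e-08). Crh, corticotropin-releasing hormone, a stress neuropeptide, read 3.86, 3.79 and 3.79 on the control arrays and 6.61, 6.54 and 6.56 on the KA arrays, again with every control below background, which makes it at least 4.69-fold higher (2.76 ± 0.11, adjusted p = 8.63e-10). Scg2, a granin stored in dense-core vesicles, read 7.11, 7.26 and 7.32 on the control arrays and 9.64, 9.39 and 9.90 on the KA arrays (2.42 ± 0.17, adjusted p = 1.54e-07). Olfm4, a secreted glycoprotein, read 4.27, 4.55 and 4.55 on the control arrays and 7.04, 7.36 and 7.51 on the KA arrays with 2 of 3 controls above background and was at least 6.87-fold higher (2.85 ± 0.19, adjusted p = 6.92e-08). Blnk, an adaptor best known from B cells, read 3.88, 3.82 and 4.09 on the control arrays and 6.64, 5.59 and 6.79 on the KA arrays, with KA replicate 2 the lowest of its group and all controls below background (at least 4-fold higher, 2.41 ± 0.21, adjusted p = 1.42e-06). Acvr1c, a receptor of the activin and nodal family, read 6.0, 6.14 and 5.87 on the control arrays and 7.87, 8.25 and 8.25 on the KA arrays (2.12 ± 0.17, adjusted p = 4.31e-07), and its other 2 probe sets rose by 0.28 and 2.25. Sstr2, a somatostatin receptor, read 6.58, 6.64 and 6.63 on the control arrays and 8.51, 8.48 and 8.98 on the KA arrays, with KA replicate 3 the highest (2.03 ± 0.15, adjusted p = 2.62e-07).

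The rest of these 12 rises were intracellular or less well known. Ctla2a, which encodes an inhibitor of cysteine proteases, read 7.05, 6.94 and 7.01 on the control arrays and 8.88, 9.56 and 9.20 on the KA arrays (2.21 ± 0.13, adjusted p = 1.99e-08), and its second probe set rose by 1.82. Its near copy Ctla2b shares sequence with it, so the split between them is uncertain. Csrnp1, a nuclear protein induced by axin, read 7.79, 7.62 and 7.55 on the control arrays and 9.87, 9.61 and 9.81 on the KA arrays, a narrow spread in each group (2.11 ± 0.09, adjusted p = 1.23e-09). Ifrd1, a transcriptional co-regulator, rose by 2.13 ± 0.14, adjusted p = 7.50e-08, and Zdbf2, an imprinted gene expressed from the paternal allele, by 2.17 ± 0.10, adjusted p = 1.23e-09. Fam187a read 5.45, 5.12 and 4.97 on the control arrays and 7.35, 7.40 and 7.30 on the KA arrays (2.17 ± 0.11, adjusted p = 5.84e-09). These 12 were chosen from genes whose groups did not overlap.

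**Figure D2:**
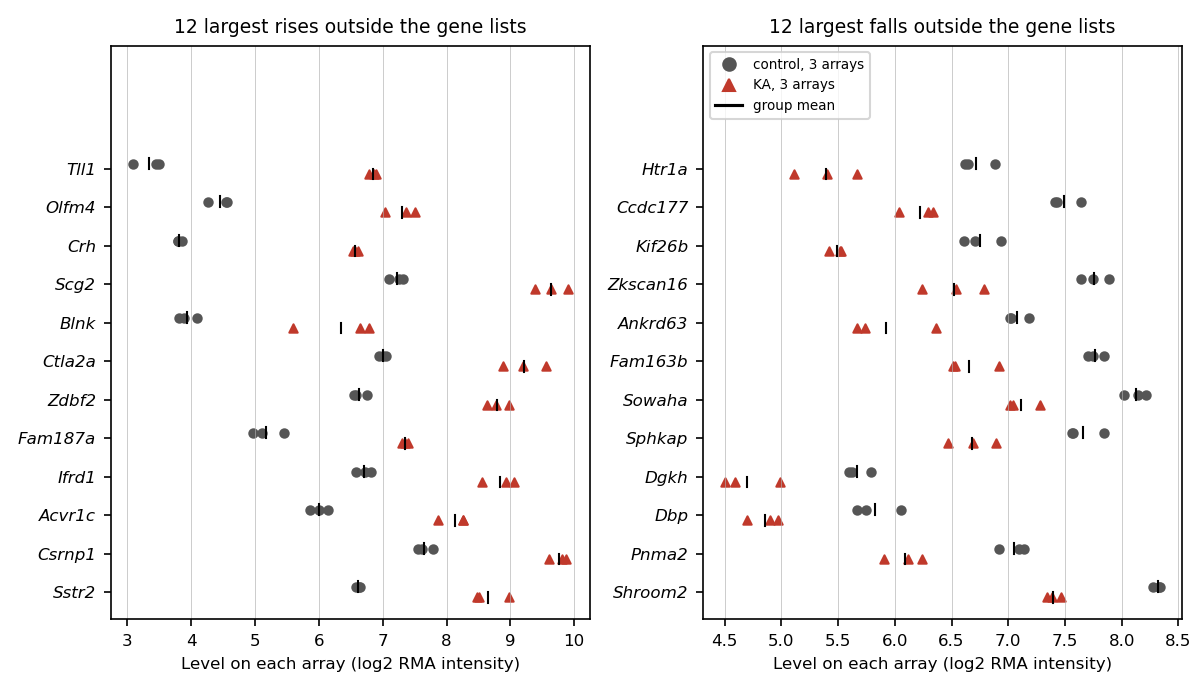
Level on each of the 6 arrays (log2 intensity) for the 12 largest rises (left) and the 12 largest falls (right) among called genes in no list, with grey circles for control arrays, red triangles for KA arrays and a black bar for each group mean. The KA triangles of Tll1 lie at 6.78 to 6.89 against circles at 3.08 to 3.49. Only genes whose groups did not overlap could be chosen, so the gap seen for every gene was fixed by the choice.

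Promoter sequence was read for the members that rose most, because the early factors above bind short DNA motifs. The RefSeq table (GRCm38.p6) gave 214 promoters for 152 of the 190 genes at least 2-fold higher, each from 250 bases before to 50 after a start site. A gene with several starts counts once for each. The cAMP response element (CRE), searched as TGACGTCA, which is its own reverse complement, stood in 4.67% of these promoters, against 2.72% of the 14125 promoters of all genes tested and 1.35% of the 223 promoters of genes at least 1.5-fold lower. The AP-1 motif, searched as TGAGTCA on both strands, stood in 9.35%, 4.24% and 3.14% in the same order. The core TGACG, which lies within the CRE, stood in 40.2%, 28.1% and 23.8%. The CArG box, the motif of serum response factor, stood in 2.8%, 1.4% and 1.35%, but 4 of its 6 promoters among the rising genes are starts of Egr2. The letters TATAAA stood in 15.4%, 8.28% and 6.28%. The E-box CACGTG gave 11.7%, 9.27% and 10.3%. The heat shock element and the glucocorticoid response element had 0 matches in the promoters of the rising genes, against 0.503% and 0.0354% of all. The joint C/EBP and ATF motif likewise had 0 matches against 0.135% of all. For 0 matches in 214 promoters the upper confidence limit was 1.71%, above each of these shares, so the 0 counts cannot tell the rising genes from all genes. Counted once per gene, the CRE stood in 6.58%, 3.24% and 1.91% of genes with a promoter, the AP-1 motif in 10.5%, 5.04% and 3.82% and the CArG box in 1.97%, 1.67% and 1.91%. These shares describe the letters present in the windows and were not tested.

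To show what such matches look like, 6 stretches follow from genes that rose, 2 for each motif, with the motif in capitals and the gene's own strand written 5′ to 3′. All 6 lie on the promoter side of the start site in GRCm38.p6. Scg2 is shown at chr1:79440052-79440129 (minus strand, motif 68 bases before the start), Dusp1 at chr17:26508573-26508650 (minus, 143 bases), Ctla2a at chr13:60936713-60936789 (minus, 129 bases, as the reverse complement TGACTCA), Csrnp1 at chr9:119983024-119983072 (minus, 14 bases), Egr2 at chr10:67537459-67537538 (plus, 72 bases) and Rnd3 at chr2:51149167-51149246 (minus, 100 bases).
Scg2 (CRE): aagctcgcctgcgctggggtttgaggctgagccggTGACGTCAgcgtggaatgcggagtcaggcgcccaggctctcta
Dusp1 (CRE): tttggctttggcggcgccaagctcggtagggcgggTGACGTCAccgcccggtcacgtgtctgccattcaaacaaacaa
Ctla2a (AP-1): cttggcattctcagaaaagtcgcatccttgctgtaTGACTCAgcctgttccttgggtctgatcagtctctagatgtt
Csrnp1 (AP-1): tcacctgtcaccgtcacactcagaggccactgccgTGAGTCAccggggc
Egr2 (CArG box): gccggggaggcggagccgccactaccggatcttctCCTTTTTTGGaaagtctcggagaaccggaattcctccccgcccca
Rnd3 (CArG box): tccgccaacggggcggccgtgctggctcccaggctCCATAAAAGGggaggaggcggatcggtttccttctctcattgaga
Scg2 and Dusp1 share the full palindrome, while the bases around it differ. Dusp1, a phosphatase that turns off MAP kinases, rose by 2.22 ± 0.18, adjusted p = 7.24e-07, and Egr2, a zinc finger early factor, by 1.92 ± 0.45, adjusted p = 0.00796. Other genes at least 2-fold higher with a CRE in this window were Pcsk1, Zdbf2, Sstr2, Ell2, Errfi1, Btg2, Plk2 and Maff.

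**Figure D3:**
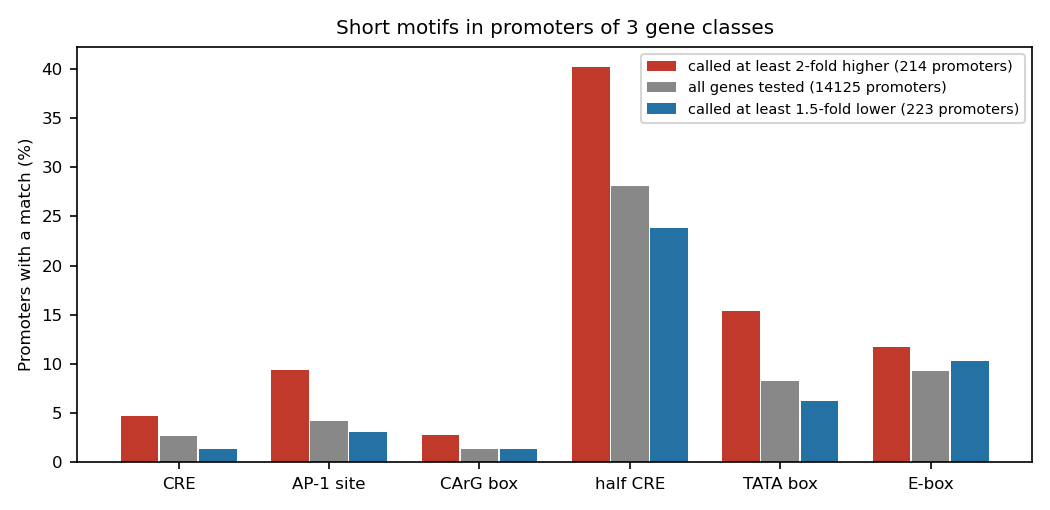
Share of promoters (%) that hold each motif, for genes called at least 2-fold higher (red, 214 promoters), all genes tested (grey, 14125) and genes called at least 1.5-fold lower (blue, 223). The TGACG core is the most common motif shown, at 40.2%, 28.1% and 23.8%, and the CRE and AP-1 bars are highest in red, at 4.67% and 9.35%.

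Further transcription factor families moved beside the usual early factors. Of 19 measured CREB, C/EBP and MAF factors, 7 rose and none fell. Nfil3, a repressor of the bZIP class that counters PAR bZIP factors, read 5.94, 5.86 and 5.88 on the control arrays and 9.23, 9.01 and 9.68 on the KA arrays, the largest rise of this list (3.41 ± 0.16, adjusted p = 1.71e-09). Maff, a small MAF factor, was at least 1.93-fold higher (1.01 ± 0.11, adjusted p = 1.11e-05), and Bach1, a repressor of heme-regulated genes, rose by 0.75 ± 0.12, adjusted p = 6.15e-04. Of 16 KLF and SP factors, 4 rose and 1 fell. Klf10, a growth-factor-induced repressor, read 7.20, 7.28 and 7.45 on the control arrays and 9.04, 9.35 and 9.50 on the KA arrays (1.98 ± 0.18, adjusted p = 1.95e-06), Klf6 rose by 1.51 ± 0.11, adjusted p = 2.24e-07, and Klf15, a factor of metabolic control, fell (-0.65 ± 0.10, adjusted p = 4.92e-04). Of 33 bHLH, Id and Hes factors, 7 rose and 3 fell, and Myc, a driver of growth and ribosome genes, rose by 0.92 ± 0.11, adjusted p = 2.24e-05. Id2, an inhibitor of bHLH factors, rose by 0.90 ± 0.08, adjusted p = 1.37e-06, and Bhlhe41, a repressor within the circadian clock, by 0.83 ± 0.09, adjusted p = 6.32e-06. Neurod6, a factor of pyramidal neurons, changed by -0.80 ± 0.19, adjusted p = 0.00937 and lost its call without control replicate 3 (-0.69, adjusted p = 0.05) and without KA replicate 1 (-0.69, adjusted p = 0.0521). Sox11, a factor of immature neurons, read 7.26, 7.16 and 7.20 on the control arrays and 8.39, 8.46 and 8.46 on the KA arrays (1.23 ± 0.11, adjusted p = 1.39e-06), and its other 5 probe sets rose by 1.30 to 2.38. Sox9, an astrocyte factor, rose by 1.13 ± 0.12, adjusted p = 1.33e-05, but less at its other 2 probe sets (0.22 and 0.45). Of 10 astrocyte markers measured, Sox9 was the only one called higher. Fgfr3 was the only one called lower (-0.39, adjusted p = 0.00843), a call lost without the third array of each group (adjusted p = 0.09). The summed level of the 10 was 12.79 to 12.90 on the control arrays and 12.80 to 12.87 on the KA arrays (log2).

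Genes of the circadian clock have no list of their own here, though Per1, Nr1d2, Bhlhe40 and Bhlhe41 stand on other lists. Those named below moved in both directions. If the second time entry in the labels were the true time, time and treatment could not be told apart for these genes. Dbp, a PAR bZIP factor under clock control, read 5.67, 5.75 and 6.05 on the control arrays and 4.90, 4.69 and 4.97 on the KA arrays (-0.97 ± 0.15, adjusted p = 2.70e-04). Nr1d2, a clock repressor of the nuclear receptor family, read 7.58, 7.80 and 7.68 on the control arrays and 7.03, 7.16 and 6.83 on the KA arrays (-0.68 ± 0.10, adjusted p = 1.55e-04). Other clock genes, chosen after their values were seen, included falls of Hlf (-0.71 ± 0.13, adjusted p = 0.00144), Per3 (-0.62 ± 0.10, adjusted p = 4.56e-04) and Tef (-0.45 ± 0.08, adjusted p = 0.00158). Rises were those of Bhlhe41, given above, Per1 by 0.72 ± 0.11, adjusted p = 1.92e-04, Arntl by 0.72 ± 0.14, adjusted p = 0.00179, Cry2 by 0.70 ± 0.13, adjusted p = 0.00122 and Bhlhe40 by 0.41 ± 0.09, adjusted p = 0.00368. Npas2 rose by 0.33 (adjusted p = 0.0147), a call lost without control replicate 1 or KA replicate 1. Clock genes without a call are not given, so no share of them is stated. Of 32 nuclear receptors outside the Nr4a family, 2 rose and 2 fell, so that family showed 12.5% called, under the 17.5% of all genes.

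Genes of chromatin and RNA handling moved in both directions. Of 29 histone deacetylases, demethylases and DNA methylation genes, 6 rose and 3 fell. Kdm7a, a histone demethylase, read 6.66, 6.68 and 6.68 on the control arrays and 7.94, 7.75 and 8.17 on the KA arrays (1.28 ± 0.12, adjusted p = 1.59e-06). Ezh1 and Ezh2, alternative catalytic subunits of a Polycomb complex, moved apart. Ezh1 fell (-0.62 ± 0.08, adjusted p = 8.43e-05), less at its other 3 probe sets (-0.29 to -0.15), and Ezh2 was at least 1.44-fold higher (0.58 ± 0.10, adjusted p = 0.00123). Of 14 core and linker histones 3 rose and 1 fell, led by H2az1, a histone variant found at promoters (0.71 ± 0.08, adjusted p = 3.00e-05). Of 35 SR proteins and hnRNPs, 7 rose and 3 fell, but the rises numbered 3 without control replicate 1, 4 without control replicate 3 and 2 without KA replicate 3. The falls numbered 1 without control replicate 2, 1 without control replicate 3 and 1 without KA replicate 1. Cirbp, an RNA-binding protein induced by cold, read 7.30, 7.16 and 7.29 on the control arrays and 6.37, 6.15 and 6.47 on the KA arrays (-0.92 ± 0.10, adjusted p = 7.55e-06).

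Among genes for making proteins, most of the called members rose. Of 43 nucleolar ribosome biogenesis genes 9 rose and none fell (20.9% called, next to 17.5% of all genes), with a median of 0.15. The rises numbered 5 without control replicate 2, 5 without control replicate 3 and 5 without KA replicate 3. Fbl, the methyltransferase of the nucleolus, read 8.69, 8.78 and 8.66 on the control arrays and 9.71, 9.59 and 9.81 on the KA arrays (0.99 ± 0.11, adjusted p = 1.19e-05). Ddx21, a nucleolar helicase, rose by 0.56 ± 0.12, adjusted p = 0.004. Nip7 rose by 0.60 ± 0.13, adjusted p = 0.00444 at the probe set used and moved by -0.18 at its other one. Of 17 cytosolic aminoacyl-tRNA synthetases 3 rose and none fell (17.6% called, next to 17.5% of all genes). The largest of these rises was that of Eprs, which joins glutamate and proline to their tRNAs (0.92 ± 0.12, adjusted p = 5.93e-05). Of 37 translation factors 3 rose, which is 8.11%, next to 7.92% of all genes, and the rises numbered 1 without control replicate 1, 0 without control replicate 2 and 0 without KA replicate 3. Of 25 amino acid transport and synthesis genes 4 rose and 1 fell (20% called, next to 17.5% of all genes). The rises included Chac1, a glutathione-degrading enzyme of the stress response (0.71 ± 0.10, adjusted p = 2.04e-04), and Slc3a2, the heavy chain of amino acid exchangers (0.66 ± 0.09, adjusted p = 8.95e-05). Of 44 secretory pathway genes 6 rose (3 without control replicate 2) and 1 fell, which is 15.9% called, under the 17.5% of all genes. Creld2, an endoplasmic reticulum stress gene, rose by 0.73 ± 0.14, adjusted p = 0.00216.

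Nuclear transport genes were called about as often as all genes. Of 36 nuclear import, export and pore genes 6 rose and 1 fell (19.4% called, next to 17.5% of all), and the rises numbered 3 without control replicate 2, 3 without control replicate 3 and 2 without KA replicate 3. Nup98, a pore protein, rose by 0.67 ± 0.08, adjusted p = 4.11e-05. Of 41 ubiquitin ligases and deubiquitinases 11 rose (6 without control replicate 1 and 7 without KA replicate 3) and 5 fell (3 without control replicate 2, 3 without control replicate 3 and 2 without KA replicate 1). Rnf217, a RING-type ligase, read 6.49, 6.57 and 6.62 on the control arrays and 8.02, 7.79 and 8.17 on the KA arrays (1.43 ± 0.16, adjusted p = 1.19e-05). Fbxo33, a substrate adaptor of SCF ligases, rose by 0.93 ± 0.13, adjusted p = 1.46e-04, and Otud1, a deubiquitinase, by 0.85 ± 0.09, adjusted p = 1.47e-05. Cyld, a deubiquitinase that restrains NF-kappaB, fell (-0.68 ± 0.17, adjusted p = 0.00944), a call that was lost without KA replicate 1 (-0.57, adjusted p = 0.0546).

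Growth factor systems changed at the level of ligands, receptors and feedback inhibitors. Of 16 EGF, ErbB and neuregulin genes, 3 rose (5 without KA replicate 2) and 1 fell. Hbegf, a ligand of the EGF receptor, read 6.09, 6.0 and 6.08 on the control arrays and 8.61, 8.60 and 8.94 on the KA arrays (2.66 ± 0.14, adjusted p = 7.30e-09). The feedback inhibitors of the same receptor rose with it, Errfi1 by 1.60 ± 0.17, adjusted p = 8.93e-06 and Lrig1 by 1.22 ± 0.11, adjusted p = 1.94e-06. Erbb4, a neuregulin receptor of interneurons, fell (-0.52 ± 0.11, adjusted p = 0.00291). Of 21 VEGF, PDGF and angiopoietin genes 7 rose and 1 fell, with rises numbering 3 without control replicate 1, 3 without control replicate 2 and 4 without control replicate 3. Nrp1, a co-receptor of VEGF and semaphorins, read 7.71, 7.55 and 7.58 on the control arrays and 8.42, 8.38 and 8.78 on the KA arrays (0.91 ± 0.14, adjusted p = 2.58e-04), and Pdgfb, a ligand that recruits pericytes, rose by 0.61 ± 0.10, adjusted p = 4.75e-04. Of 20 FGF family genes 6 rose and 4 fell (2 without control replicate 3). Fgf2, a mitogen of neural progenitors, read 4.05, 4.0 and 3.81 on the control arrays and 4.16, 4.88 and 5.09 on the KA arrays, with every control below background and KA replicate 1 at 4.16 below its own background too, so it is at least 1.29-fold higher (0.76 ± 0.17, adjusted p = 0.00627). Receptors Fgfr2 and Fgfr1 rose by 0.65 ± 0.09, adjusted p = 1.68e-04 and 0.47 ± 0.09, adjusted p = 0.00215.

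Neurotrophic and insulin-related genes were more divided. Of 12 GDNF family and related secreted factors 3 rose and 3 fell. Vgf, a secreted neuropeptide precursor induced by neurotrophins, read 8.22, 8.23 and 8.22 on the control arrays and 9.25, 9.33 and 9.49 on the KA arrays (1.13 ± 0.14, adjusted p = 6.15e-05). Gfra1, a GDNF receptor, rose by 0.86 ± 0.11, adjusted p = 8.94e-05, and Gfra4, of the same receptor family, fell (-0.42 ± 0.09, adjusted p = 0.00304). Of 21 insulin and IGF genes 1 rose (0 with any 1 of the 6 arrays left out) and 4 fell (2 without control replicate 3). Grb14, an inhibitor of the insulin receptor, fell (-0.58 ± 0.10, adjusted p = 7.55e-04). Of 36 Wnt genes 1 rose and 2 fell, which is 8.33% called against 17.5% of all. Fzd2, a Wnt receptor, read 6.82, 7.01 and 7.09 on the control arrays and 6.32, 6.37 and 6.0 on the KA arrays (-0.74 ± 0.12, adjusted p = 5.62e-04), and its other 2 probe sets changed by -1.22 and -0.80. Of 19 Notch genes 3 rose and 3 fell, with Rbpj, the DNA-binding factor of the pathway, higher by 0.65 ± 0.13, adjusted p = 0.0021 and Nrarp, a feedback inhibitor, at -0.54 ± 0.12, adjusted p = 0.00639.

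Falls outnumbered rises in the calcium, adenylyl cyclase and CaM kinase lists below, as they did over all genes tested (9.55% lower and 7.92% higher). Called were 43.8%, 40% and 25.8% of their members in this order, against 17.5% of all genes. The phosphodiesterases, given further below, went the other way, with 3 higher and 2 lower. Of 32 calcium pumps, stores and buffers 3 rose and 11 fell, with a median of -0.21. The falls numbered 7 without control replicate 2, 6 without control replicate 3 and 6 without KA replicate 1. Pvalb, parvalbumin, a calcium buffer of fast-spiking interneurons, read 8.43, 8.50 and 8.37 on the control arrays and 7.84, 8.08 and 7.75 on the KA arrays (-0.55 ± 0.11, adjusted p = 0.00354). Calb1, calbindin, a buffer of granule cells, fell (-0.43 ± 0.10, adjusted p = 0.00545), less at its other 3 probe sets (-0.23 to -0.08). Slc24a4, a sodium and calcium exchanger, rose against the trend of the list, by 0.82 ± 0.13, adjusted p = 5.60e-04. Of 35 adenylyl cyclase, PKA and PKC genes 4 rose (2 without control replicate 1 and 2 without KA replicate 1) and 10 fell (4 without control replicate 3 and 4 without KA replicate 1). Akap12, a scaffold of PKA and PKC, read 5.74, 5.64 and 5.70 on the control arrays and 7.10, 7.25 and 7.30 on the KA arrays (1.52 ± 0.08, adjusted p = 8.42e-09). Pkia, a peptide inhibitor of PKA, fell (-0.77 ± 0.15, adjusted p = 0.00175). Of 31 CaM kinase and calcineurin genes 2 rose and 6 fell. Rcan1, an inhibitor of calcineurin, rose by 0.97 ± 0.14, adjusted p = 1.86e-04, and Camk2g, a subunit of CaM kinase II, read 8.99, 8.87 and 9.07 on the control arrays and 8.03, 8.14 and 8.29 on the KA arrays (-0.82 ± 0.09, adjusted p = 1.47e-05).

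More small GTPases rose than fell. Of 39 GTPases of the Ras, RGK and Rnd types 10 rose and 3 fell. Rhoj, a GTPase of endothelial cells, read 6.66, 6.54 and 6.35 on the control arrays and 8.87, 8.76 and 8.80 on the KA arrays, a wide gap (2.30 ± 0.14, adjusted p = 2.28e-08). Rnd3, an atypical GTPase of the Rnd type, read 4.08, 4.25 and 4.01 on the control arrays and 6.07, 5.68 and 6.20 on the KA arrays with every control below background, so it was at least 3.12-fold higher (1.87 ± 0.17, adjusted p = 2.29e-06). Rasl10a rose by 1.37 ± 0.12, adjusted p = 9.01e-07. Rasgrf2, a calcium-dependent activator of Ras, fell (-0.99 ± 0.14, adjusted p = 1.24e-04), and both its other probe sets fell (-0.72 and -0.71). Arhgap12, a brake on Rac that limits excitatory synapses, read 7.38, 7.29 and 7.34 on the control arrays and 6.14, 6.03 and 6.17 on the KA arrays (-1.23 ± 0.09, adjusted p = 2.28e-07), and its other 3 probe sets changed by -0.94 to -0.26. Dock4, an activator of Rac and Rap, rose by 1.06 ± 0.15, adjusted p = 1.67e-04.

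Of 49 actin, myosin and intermediate filament genes 16 rose and 2 fell (36.7% called, against 17.5% of all), with a median of 0.17. Vim, vimentin, a filament of reactive astrocytes and vessels, read 6.66, 6.52 and 6.27 on the control arrays and 8.0, 7.98 and 8.19 on the KA arrays (1.57 ± 0.16, adjusted p = 7.48e-06). Msn, moesin, a linker of actin and membrane, rose by 1.10 ± 0.14, adjusted p = 4.74e-05, Ina, a neuronal filament protein, by 1.00 ± 0.09, adjusted p = 2.34e-06 and Tpm4, a tropomyosin, by 0.94 ± 0.13, adjusted p = 1.23e-04. Of 40 tubulins, microtubule proteins and kinesins 1 rose and 5 fell (15% called, under the share of all genes), and the falls numbered 2 without control replicate 1, 3 without control replicate 2, 1 without control replicate 3, 2 without KA replicate 1 and 2 without KA replicate 2. Stmn4, which destabilises microtubules, was the riser (0.70 ± 0.10, adjusted p = 1.68e-04), and Tubb3, the neuronal tubulin, fell (-0.52 ± 0.11, adjusted p = 0.00363). Of 31 cilium genes 2 rose (0 or 1 with any 1 array left out) and 7 fell, with a median of -0.16, and Cc2d2a, a protein of the ciliary gate, fell (-0.77 ± 0.12, adjusted p = 2.72e-04). Of 15 annexins and S100 proteins 7 rose and 1 fell. Anxa2 read 4.63, 4.67 and 4.74 on the control arrays and 6.05, 5.94 and 6.38 on the KA arrays (1.44 ± 0.10, adjusted p = 9.90e-08), and S100a10, its partner in a membrane complex, read 6.03, 6.22 and 6.14 on the control arrays and 7.48, 7.52 and 7.35 on the KA arrays (1.32 ± 0.09, adjusted p = 7.88e-08).

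Adhesion and guidance genes included the deepest fall among genes with a symbol. Dsp, desmoplakin, a desmosome protein that marks dentate granule cells, read 9.30, 8.84 and 9.20 on the control arrays and 7.25, 7.0 and 7.18 on the KA arrays, which is 3.91-fold lower (-1.97 ± 0.17, adjusted p = 1.00e-06). Its other 2 probe sets changed by -1.92 and -0.56. Pcdh8, an activity-induced protocadherin that acts on cadherin uptake, read 4.13, 4.09 and 4.17 on the control arrays and 7.07, 7.11 and 7.49 on the KA arrays, with 1 control above background, and was at least 7.33-fold higher (3.09 ± 0.24, adjusted p = 4.15e-07). Cdh5, the cadherin of endothelial junctions, rose by 0.98 ± 0.12, adjusted p = 4.15e-05. Efnb2, an ephrin ligand, rose by 1.15 ± 0.12, adjusted p = 5.85e-06, and Rtn4rl2, a Nogo receptor homologue, by 1.10 ± 0.17, adjusted p = 2.77e-04. Sema5a, a semaphorin that limits synapse number, read 8.20, 8.26 and 8.33 on the control arrays and 7.01, 7.18 and 7.45 on the KA arrays (-1.05 ± 0.18, adjusted p = 9.84e-04), though 1 of its other 3 probe sets moved by only -0.04. Sema4d fell (-0.70 ± 0.11, adjusted p = 3.09e-04) and Plxna1, a semaphorin receptor, too (-0.63 ± 0.09, adjusted p = 2.37e-04). Of 33 synaptic adhesion genes 3 rose and 4 fell (2 without control replicate 1, 2 without control replicate 2 and 2 without KA replicate 2). That is 21.2% called, next to 17.5% of all genes. Adgrb3, a receptor of C1q-like proteins, fell (-0.90 ± 0.16, adjusted p = 0.00112), and Adgrl3, a latrophilin, rose by 0.85 ± 0.12, adjusted p = 1.96e-04.

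Receptors and channels outside the glutamate and GABA systems changed in both directions. Htr1a, a serotonin receptor that dampens firing, read 6.64, 6.61 and 6.88 on the control arrays and 5.66, 5.11 and 5.40 on the KA arrays (-1.32 ± 0.13, adjusted p = 3.94e-06), and its other probe set moved by -0.18. Of 17 acetylcholine and glycine receptors 1 rose and 2 fell (17.6% called, next to 17.5% of all genes). The 2 that fell were the nicotinic subunits Chrnb2 and Chrna7 (-0.63 ± 0.09, adjusted p = 1.68e-04, and -0.60 ± 0.11, adjusted p = 0.00179, in this order). Of 29 inward-rectifier, K2P and calcium-activated potassium channels 2 rose and 5 fell. Kcnk1, a leak channel, rose by 0.68 ± 0.15, adjusted p = 0.00613, Kcnk2, of the same class, was at least 1.51-fold lower (-0.61 ± 0.09, adjusted p = 1.73e-04), and Kcnj11, a subunit of the ATP-sensitive channel, fell (-0.47 ± 0.08, adjusted p = 0.00113). Of 14 endocannabinoid genes 1 changed (7.14%, under the share of all genes), Faah, which degrades anandamide (-0.65 ± 0.08, adjusted p = 3.20e-05). Of 16 phosphodiesterases 3 rose and 2 fell, with Pde4b, which hydrolyses cAMP, higher by 0.88 ± 0.12, adjusted p = 1.24e-04 and Pde1b, a calmodulin-dependent form, at -0.63 ± 0.12, adjusted p = 0.00132. Of 35 TRP, ASIC and chloride channels 3 rose and 2 fell (14.3% called, under the share of all genes), and Clic4, an intracellular chloride channel protein, rose by 0.95 ± 0.11, adjusted p = 1.65e-05. Of 10 dopamine and adrenergic receptors 1 rose, Drd1 (0.40 ± 0.13, adjusted p = 0.0452), and none fell (10% called, under the share of all genes). This rise was lost without control replicate 1 or 3 or KA replicate 1 or 2.

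Metabolic genes changed at a few steps. Of 28 glycolysis and glucose uptake genes 4 rose and none fell (14.3% called, under the 17.5% of all genes), and 3 of the 4 encode transporters. Slc16a1, a lactate and pyruvate carrier, read 6.45, 6.48 and 6.74 on the control arrays and 8.49, 8.27 and 8.95 on the KA arrays (2.02 ± 0.15, adjusted p = 2.41e-07), but its other probe set moved by 0.29. Slc2a3, the neuronal glucose transporter, read 8.11, 8.34 and 8.51 on the control arrays and 9.38, 9.35 and 9.56 on the KA arrays (1.11 ± 0.12, adjusted p = 7.55e-06), and Pfkfb3, an activator of glycolysis, rose by 0.68 ± 0.09, adjusted p = 5.79e-05. Of 35 fatty acid and lipid droplet genes 5 rose (3 without control replicate 1 and 3 without KA replicate 2) and 7 fell (4 without control replicate 2), with Plin2, a coat protein of lipid droplets, higher by 1.03 ± 0.11, adjusted p = 1.37e-05. In polyamine metabolism 3 of 11 genes rose and 1 fell. Sat1, which acetylates polyamines for breakdown, rose by 1.05 ± 0.10, adjusted p = 2.39e-06, and Odc1, which makes putrescine, by 0.74 ± 0.10, adjusted p = 1.46e-04. Of 19 prostaglandin and leukotriene genes (10.5% called, also under the share of all genes) only Ptgs2 rose, the inducible cyclooxygenase. It read 3.81, 3.68 and 3.86 on the control arrays and 6.48, 6.22 and 6.95 on the KA arrays with all controls below background and was at least 4.63-fold higher (2.77 ± 0.31, adjusted p = 1.50e-05). Of 26 sphingolipid genes 3 rose and 2 fell (19.2% called, next to 17.5% of all genes). The kinases that make sphingosine phosphate moved apart. Sphk1 read 5.50, 5.55 and 5.61 on the control arrays and 7.09, 6.85 and 7.08 on the KA arrays (1.45 ± 0.10, adjusted p = 5.85e-08), with 0.26 at its other probe set, and Sphk2 read 7.71, 7.78 and 7.99 on the control arrays and 6.24, 5.99 and 6.10 on the KA arrays (-1.72 ± 0.14, adjusted p = 5.10e-07), with 0.01 at its other probe set.

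Survival, growth and metal-handling genes were mixed. Of 29 BCL2 family and caspase genes 4 rose (2 without KA replicate 1) and 5 fell (3 without control replicate 3). Mcl1, which protects from apoptosis, read 6.47, 6.20 and 6.33 on the control arrays and 7.69, 7.52 and 7.86 on the KA arrays (1.36 ± 0.13, adjusted p = 2.28e-06), and Cflar, an inhibitor of caspase activation, rose by 1.04 ± 0.10, adjusted p = 4.43e-06, less at its other 4 probe sets (0.11 to 0.63). Hrk and Bad, which promote apoptosis, fell (-0.57 ± 0.11, adjusted p = 0.00158, and -0.50 ± 0.11, adjusted p = 0.00564, in this order). Pmaip1, which promotes apoptosis too, rose, and Xiap, which inhibits caspases, fell, so the called members pointed both ways. Bcl2 also rose, and Bnip3 and Bnip3l fell. Of 30 autophagy genes 1 rose and 4 fell (2 without control replicate 3 and 2 without KA replicate 1). That is 16.7% called, next to 17.5% of all genes. The riser Bag3, a co-chaperone, was at least 1.49-fold higher (0.71 ± 0.16, adjusted p = 0.00491). Of 27 mTOR and growth brake genes 8 rose and 2 fell, led by Trib1, a pseudokinase (1.71 ± 0.17, adjusted p = 5.85e-06, and 0.43 at its other probe set), and Tsc22d2 (1.21 ± 0.10, adjusted p = 8.15e-07). Of 25 metallothionein, zinc and iron genes 8 rose and 1 fell, and the rises numbered 5 without control replicate 2, 5 without KA replicate 2 and 5 without KA replicate 3. Hmox1, heme oxygenase, read 5.83, 5.57 and 5.50 on the control arrays and 6.72, 7.39 and 6.79 on the KA arrays (1.33 ± 0.15, adjusted p = 1.72e-05), and Slc39a14, a zinc and iron importer, rose by 0.82 ± 0.08, adjusted p = 2.39e-06. Lcn2, lipocalin, an iron-binding protein of reactive astrocytes, read 6.48, 5.42 and 4.98 on the control arrays and 7.74, 7.39 and 7.82 on the KA arrays (2.02 ± 0.62, adjusted p = 0.0344), and its call was lost when any array but control replicate 1 was left out, with adjusted p from 0.0601 to 0.137. Of 41 DNA repair genes 1 rose and 5 fell (14.6% called, under the share of all genes). The falls numbered 2 without control replicate 2, 3 without control replicate 3, 3 without KA replicate 1 and 3 without KA replicate 3. Atm, a kinase of the break response, fell (-0.61 ± 0.09, adjusted p = 3.08e-04).

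Glial, immune and vascular genes rose in part while some homeostatic microglial genes fell. Of 28 usual glial genes 11 rose and 3 fell. Osmr, the oncostatin receptor, read 5.43, 5.03 and 4.85 on the control arrays and 7.30, 7.21 and 7.35 on the KA arrays (2.18 ± 0.12, adjusted p = 7.96e-09), and Cd44, a hyaluronan receptor, read 4.95, 4.56 and 4.91 on the control arrays and 6.93, 6.81 and 7.09 on the KA arrays (2.14 ± 0.12, adjusted p = 1.77e-08). Gfap, the astrocyte filament, read 10.36, 10.01 and 10.12 on the control arrays and 11.28, 10.93 and 11.32 on the KA arrays (1.02 ± 0.13, adjusted p = 4.43e-05), and its other 2 probe sets rose by 1.45 and 1.82. Serpina3n, a secreted protease inhibitor, rose by 1.91 ± 0.17, adjusted p = 1.24e-06, Plat, tissue plasminogen activator, by 1.25 ± 0.12, adjusted p = 3.94e-06, and Srgn, a proteoglycan of secretory granules, by 1.52 ± 0.11, adjusted p = 2.28e-07. Of 23 genes of the TNF family and its receptors 3 rose and 1 fell, Tnfrsf21 (17.4% called, next to 17.5% of all genes). Of 42 interleukin receptor and SOCS genes 6 rose and 4 fell (Il16, Il34, Ifngr2 and Tyk2), which is 23.8% called. Tnfrsf12a, the receptor of TWEAK, rose by 1.48 ± 0.13, adjusted p = 9.01e-07, and Il33, an alarm cytokine of glia, by 0.90 ± 0.13, adjusted p = 1.41e-04. Stat3, the factor below the oncostatin receptor, rose by 0.78 ± 0.10, adjusted p = 6.37e-05, and Socs3, its feedback inhibitor, was at least 1.26-fold higher (0.64 ± 0.11, adjusted p = 6.49e-04). Il1b, an inflammatory cytokine, read 5.54, 5.64 and 5.47 on the control arrays and 5.76, 5.67 and 5.59 on the KA arrays, a difference that did not pass the test (adjusted p = 0.564). P2ry12, an ADP receptor of resting microglia, read 6.69, 6.70 and 7.10 on the control arrays and 5.18, 5.15 and 5.47 on the KA arrays (-1.56 ± 0.13, adjusted p = 7.21e-07). Tmem119 and P2ry13, of the same cell state, fell (-0.57 ± 0.12, adjusted p = 0.00295, and -0.47 ± 0.11, adjusted p = 0.00905, in this order), while Fcrls, also a microglial marker, rose by 0.80 ± 0.10, adjusted p = 2.92e-05. The summed level of the 8 microglial markers was 9.72 to 9.88 on the control arrays and 9.84 to 9.87 on the KA arrays (log2). Of 10 oligodendrocyte markers 4 fell (2 without control replicate 2, control replicate 3 or KA replicate 1), with Mog, a myelin protein, at -0.69 ± 0.14, adjusted p = 0.00354, and their summed level was 12.13 to 12.34 on the control arrays and 12.05 to 12.28 on the KA arrays (log2).

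Vessel and neuron-type markers also moved within their lists. Of 16 endothelial and pericyte markers 3 rose and 3 fell, where Pecam1, a junction protein, rose by 0.73 ± 0.10, adjusted p = 7.33e-05 and the transporters Slco1a4 and Abcb1a fell (-0.78 ± 0.10, adjusted p = 7.49e-05, and -0.63 ± 0.14, adjusted p = 0.00543, in this order). Their summed level was 10.48 to 10.52 on the control arrays and 10.52 to 10.65 on the KA arrays (log2). Of 8 granule cell markers 3 rose (1 without control replicate 1, 1 without control replicate 2 and 1 without KA replicate 3) and 2 fell, with Pdzd2 higher by 1.02 ± 0.12, adjusted p = 2.70e-05. Of 4 CA3 markers 2 rose (1 without control replicate 1, 1 without control replicate 2, 1 without control replicate 3 and 1 without KA replicate 3), Nectin3, a synaptic adhesion protein, by 0.74 ± 0.15, adjusted p = 0.00312 and Tspan18 by 0.42 (0.30, adjusted p = 0.157, without KA replicate 3), and their summed level was 9.73 to 9.85 on the control arrays and 10.15 to 10.51 on the KA arrays (log2). Of 5 CA1 markers Ccn3, a secreted matrix protein, changed (-0.60 ± 0.12, adjusted p = 0.00304). Of 7 markers of cortex and amygdala 2 rose (1 without control replicate 2, 1 without KA replicate 1 and 1 without KA replicate 3) and 1 fell, and their summed level was 9.86 to 9.96 on the control arrays and 9.65 to 9.92 on the KA arrays (log2). Rorb, a nuclear receptor of cortical neurons, rose by 0.39 ± 0.11, adjusted p = 0.0236, and Fezf2, a factor of deep-layer neurons, read 6.37, 6.58 and 6.36 on the control arrays and 7.60, 7.46 and 7.90 on the KA arrays (1.22 ± 0.14, adjusted p = 1.90e-05) and Lamp5 fell (-0.61 ± 0.11, adjusted p = 9.67e-04). The part of tissue taken beside the hippocampus in these values was not tested.

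**Figure D4:**
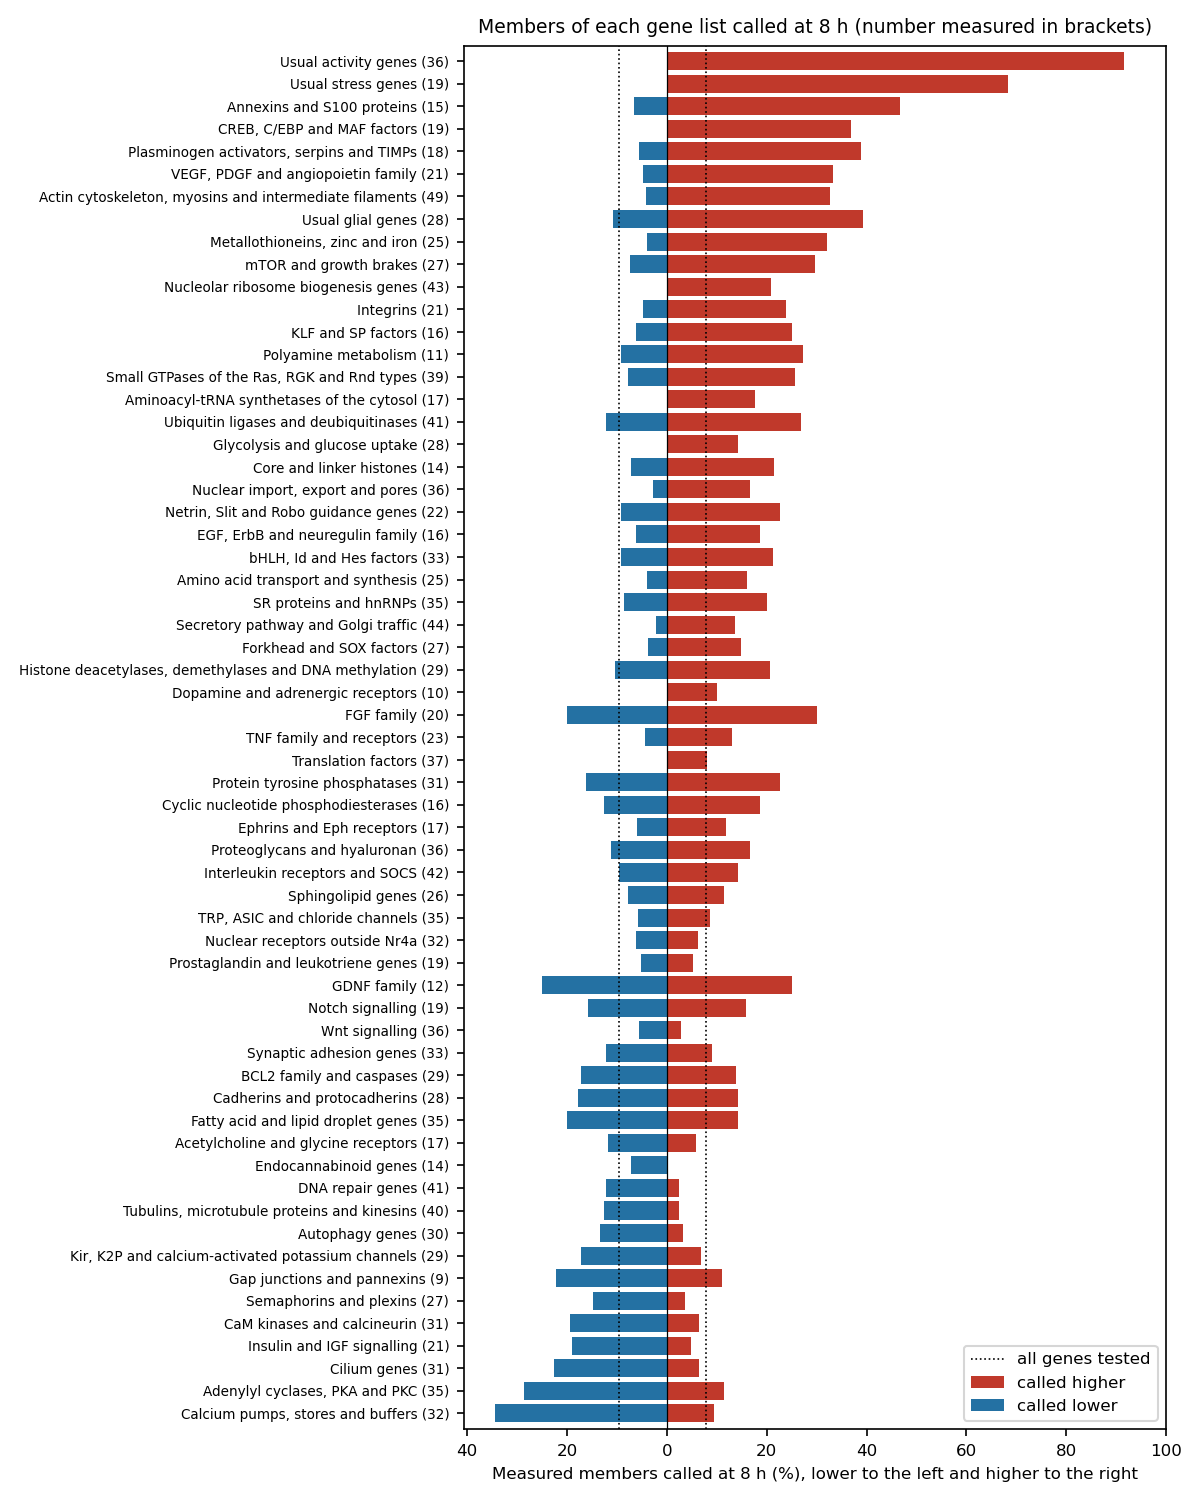
For the functional lists shown, the share of measured members (%) called higher (red, to the right) and called lower (blue, to the left), with the number measured in brackets and dotted lines at the shares of all genes tested (7.92% higher and 9.55% lower). The activity and stress lists stand at the top, with 33 of 36 and 13 of 19 higher, and the list of calcium pumps, stores and buffers at the bottom, with 11 of 32 lower.

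Falls outside the lists were smaller than the rises and less well annotated. Ccdc177 read 7.64, 7.41 and 7.43 on the control arrays and 6.03, 6.34 and 6.29 on the KA arrays (-1.27 ± 0.10, adjusted p = 7.26e-07), and Kif26b, an atypical kinesin, read 6.93, 6.61 and 6.71 on the control arrays and 5.42, 5.52 and 5.52 on the KA arrays (-1.26 ± 0.09, adjusted p = 2.63e-07). Zkscan16, a zinc finger protein, fell (-1.24 ± 0.12, adjusted p = 2.36e-06). Ankrd63 read 7.03, 7.18 and 7.02 on the control arrays and 5.73, 6.36 and 5.67 on the KA arrays, with KA replicate 2 the highest of its group but still below every control (-1.15 ± 0.15, adjusted p = 6.37e-05). Fam163b fell (-1.11 ± 0.12, adjusted p = 1.20e-05) and so did Sowaha (-1.01 ± 0.11, adjusted p = 1.45e-05). Sphkap, an anchor of PKA, read 7.56, 7.57 and 7.84 on the control arrays and 6.69, 6.47 and 6.89 on the KA arrays (-0.98 ± 0.16, adjusted p = 4.46e-04), and its other probe set moved by only -0.17. Dgkh, a diacylglycerol kinase, read 5.60, 5.62 and 5.79 on the control arrays and 4.59, 4.50 and 4.99 on the KA arrays (-0.97 ± 0.16, adjusted p = 4.98e-04). Pnma2 fell (-0.96 ± 0.12, adjusted p = 6.40e-05), and Shroom2, an actin-binding protein encoded on the X chromosome, read 8.33, 8.28 and 8.34 on the control arrays and 7.34, 7.39 and 7.47 on the KA arrays (-0.92 ± 0.09, adjusted p = 3.08e-06). These were chosen from genes whose groups did not overlap.

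Sex-linked genes differed between the groups. Xist, the RNA that silences an X chromosome in female cells, read 4.43, 4.61 and 4.34 on the control arrays and 8.71, 7.39 and 7.84 on the KA arrays, which is at least 11.4-fold higher (3.53 ± 0.23, adjusted p = 5.85e-08), and its other 2 probe sets rose by 2.44 and 2.62. Eif2s3y, a Y-linked translation factor, read 7.46, 7.59 and 7.96 on the control arrays and 5.57, 6.45 and 6.83 on the KA arrays (-1.39 ± 0.24, adjusted p = 0.00101), with -0.32 at its other probe set. The Y-linked demethylase Kdm5d read 6.60, 6.57 and 6.84 on the control arrays and 5.07, 6.10 and 5.94 on the KA arrays (-0.97 ± 0.20, adjusted p = 0.0027). All KA arrays were higher in Xist and lower in these 2 Y-linked genes than every control, so sex and treatment cannot be told apart at 8 h. These 2 were the only ones called of 8 Y-linked genes tested, and Eif2s3y stayed above background on all KA arrays. Of 410 X-linked genes tested 32 rose and 42 fell (18%), next to 17.5% of autosomal genes, and 2345 genes changed with X and Y genes left out. At 14 d the change was 0.05 for Xist and 0.12 for Eif2s3y (log2), and neither passed the test.

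Most of the large rises at 8 h were smaller at 14 d. At 14 d, 354 genes were called (2.56%), of which 172 were also called at 8 h, 161 of them in the same direction (108 higher and 53 lower). The difference between the changes passed limma's test for 764 genes (5.52%). Of the 190 genes at least 2-fold higher at 8 h, the rise of 159 was smaller at 14 d by that test and that of 2 larger, and their median went from 1.35 to 0.25. The values at 8 h chose these 190, so a smaller value at another time is partly fixed by the choice. Of the 199 genes at least 1.5-fold lower, the fall of 78 was smaller at 14 d, and the median went from -0.68 to -0.19. The change of Hspa1b was 4.63 at 8 h and 0.03 at 14 d, and that of Zdbf2 was 2.17 and -0.29. Nptx2 was still higher at 14 d, by 2.32 ± 0.33 (adjusted p = 7.14e-04), as were Inhba by 1.43 ± 0.25 (adjusted p = 0.0039), Bdnf by 1.17 ± 0.21 (adjusted p = 0.00612) and Acvr1c by 1.11 ± 0.17 (adjusted p = 0.0011). Gfap rose more at 14 d than at 8 h (difference 0.73 ± 0.18, adjusted p = 0.0253). The change of Ankrd63 at 14 d was -0.89 ± 0.15 (adjusted p = 0.00311), and its difference from that at 8 h did not pass the test (0.27 ± 0.21, adjusted p = 0.597).

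**Figure D5:**
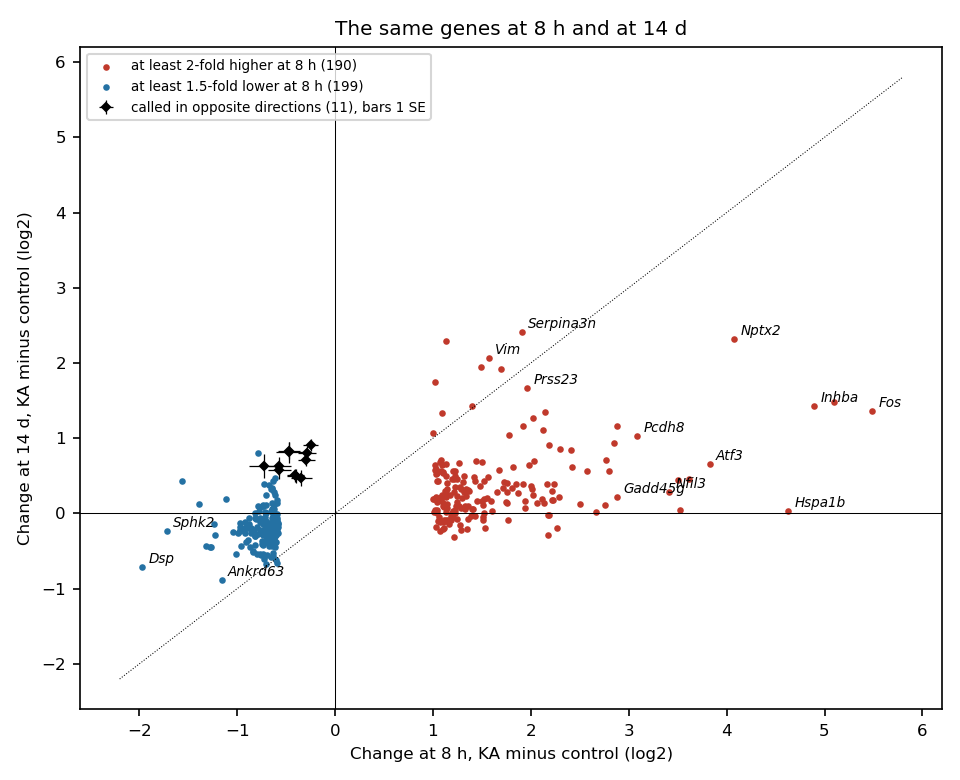
Change at 8 h (horizontal) against change at 14 d (vertical), both KA minus control on the log2 scale, for the 190 genes at least 2-fold higher at 8 h (red), the 199 at least 1.5-fold lower (blue) and the 11 genes called in opposite directions at the 2 times (black diamonds with bars of 1 SE). The dotted line marks equal change, and Hspa1b, at 4.63 and 0.03, lies on the zero line of 14 d, while Nptx2, at 4.08 and 2.32, does not.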

How the data were processed

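The arrays were Affymetrix strips of the Mouse MG-430 PM type, 12 in all, with 3 in each of 4 groups. Values are log2 intensities that the authors deposited, and RMA and affy are named per the submitters' processing notes, without version, role or order. The scale is not stated and was judged from the values. Of 45141 probe sets, 104 were controls, 28898 had 1 gene symbol in the probe annotation of 2016, 551 had several and 15588 were not named. Symbols were updated through gene identifiers (GRCm38.p6, names and chromosomes only).

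Each gene was represented by its probe set of highest average signal on the 12 arrays. Genes above the array's 30th percentile on at least 3 arrays were kept, which left 13853. Background was the mean of 8 control probe sets of GC count 18 to 25. Values of the dimmer group that did not exceed their array's background were set to that background, and the fold is then a lower bound.

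limma 3.58.1 (R 4.3.3) fitted the 4 group means over all 12 arrays (eBayes, residual degrees of freedom 8, two-sided tests), with Benjamini-Hochberg adjustment over the genes tested and a call at an adjusted p under 0.05. The fit was tested on simulated data. The members and the 78 gene lists were chosen with earlier results of these data known, so a list's direction is a description. One list is not reported here. Named were, among called genes without overlap between groups and with predicted genes skipped, the 12 largest rises and falls, the 12 largest of each in no list and up to 4 called members of a list by size, with Fos, Arc, Bdnf, Gfap, Il1b, Xist and Eif2s3y always. Some genes under this rule were left out of the text, and markers, promoter genes, Csf1r and other genes of opposite direction were named beyond it. The number of arrays limits the precision.

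The groups share replicate numbers, which the labels do not describe as pairs. Deviations of same-numbered arrays from their group means correlated at 0.155, 0.138 and 0.413, all over the bound of 0.1 for a pairing, which thus comes from the data alone. Arrays numbered 1 and 2 correlated as much across numbers (0.163 and 0.138), so the numbers stood apart only for the third arrays. Alternatives covered the filter, the probe sets, centring, loess, the arrays fitted, the replicate block, array weights, each array left out, X and Y genes and the threshold. Genes named beyond the rule were refitted with each array left out.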

Additional observations from a re-analysis of the deposited data

Results flagged for a closer look

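In 11 genes the change at 8 h and the change at 14 d passed limma's test in opposite directions, and the test of the difference between them passed as well. All 11 were lower after KA at 8 h and higher at 14 d. The difference, 14 d minus 8 h on the log2 scale, was 1.36 for Cyp11a1, 1.30 for P2ry13, 1.28 for Igfbp5, 1.20 for Tmem119, 1.16 for Grn, 1.15 for Padi2, 1.09 for Csf1r, 1.01 for Man2b1, 0.91 for Selplg, 0.90 for Abcd2 and 0.81 for Lpcat2. Several of them are known from microglia (Tmem119, P2ry13, Csf1r, Selplg) or lysosomes (Grn, Man2b1). Csf1r, the receptor that keeps microglia alive, went from 7.20 in controls to 6.91 after KA at 8 h and from 7.36 to 8.17 at 14 d. Grn, progranulin, went from 8.98 to 8.73 and from 8.87 to 9.78. The call at 8 h of 5 of the 11 was lost with 1 array left out at a time. Grn lost it with any of the 6 arrays left out (adjusted p from 0.0643 to 0.135). Lpcat2 (0.0547 to 0.195) and Man2b1 (0.0599 to 0.0954) lost it with any array but KA replicate 2 left out. Csf1r lost it without control replicate 2 or 3 or KA replicate 2 or 3 (adjusted p from 0.115 to 0.174). Igfbp5 lost it without control replicate 2 or 3 or KA replicate 1 or 3 (adjusted p from 0.0551 to 0.128). P2ry13 lost it without the arrays numbered 3 in all groups (adjusted p = 0.0625). All adjusted p are limma's.

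Over all genes, the change differed between the times for 764 of 13853 tested in limma, which is 5.52%.

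Probe sets that the annotation used here does not name also carried a signal. Of 9949 such probe sets that passed the filter, 1235 changed at 8 h (12.4%), of which 697 were higher and 538 lower. At least a 2-fold rise was seen for 86 and a 2-fold fall for 6. The largest rises were those of the probe sets 1436387_PM_at (4.21) and 1452388_PM_at (3.88), and the deepest fall was that of 1456010_PM_x_at (-2.68), on the log2 scale.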

How the results depend on the processing

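Of 287 named genes called, 230 kept the call under every alternative that gave a value. Of the 57 others, 42 lost it with 1 array left out. The replicate block (pairing) gave 3134 changed genes with 12 arrays and 3190 with the 8 h arrays alone, all 2420 among the former, and no named gene lost its call. Sec62 turned from 0.53 to -0.19 (adjusted p = 0.41) where x_at and s_at probe sets were left out.

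At an adjusted p under 0.01, 1352 genes changed (723 rose and 629 fell). With every probe set of 1 symbol tested, 3673 changed and 1759 rose, with 311 at least 2-fold higher and 21 at least 2-fold lower. With 1 array left out, changed genes numbered 1657 to 2086, rises 846 to 963, falls 754 to 1123, 2-fold rises 166 to 210 and 2-fold falls 11 to 23. Cyclic loess turned the split (1399 rose and 1215 fell), and median centring gave 979 and 1451. Without the arrays numbered 3 in all groups, 920 rose and 920 fell. Of 3118 counts of list members recomputed, 2652 stayed within 1.5 times and 466 did not, mostly counts of few genes. Array signal near background limits 30 of the 190 largest rises, whose folds are bounds.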
